A study of Mus musculus with 4 samples.

Results

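The Myc locus and the gene desert around it were examined in mouse neural progenitor-like cells, in a window of 3 Mb on chromosome 15, from 60500000 to 63500000 in build mm9. The members are all peaks of the 4 deposited peak lists whose summit lies in that window, 348 of 125574 peaks in all. The window was selected on a measured result, because a pair of Pax6 peaks with no partner in the other FLAG lists lies between 61.00 and 61.06 Mb. That pair, and the partners of Pax6 peaks in general, are therefore described here with no test. The place of Myc was taken as 61.82 Mb, as that rule gives it, and distances below are counted from there.

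ChIP-seq, which sequences the DNA bound to a protein or histone mark, was carried out on cells of strain 129/SvJ at passages 15 to 18, grown as adherent neural cultures from embryonic stem cells with EGF and FGF-2. All 4 groups share this cell type, strain and passage range, and no age, genotype or drug treatment is labelled. The M2 antibody against FLAG precipitated 3 libraries. The titles of 2 of them name NS cells with tagged Pax6 or tagged Etv6, and the third title names N31, EGFP and OK without naming a tagged protein, so it is called EGFP_OK here. The fourth library is of the histone mark H3K4me2, dimethylation of lysine 4 on histone H3, and its title names N31, Oct4, EGFP and 0 hr. Each group holds 1 library, with no control library and no replicate, so no difference below has a replicate check and no test between groups was possible. The sources used here do not give how the tagged proteins were expressed, or whether each line is 1 clone. NS and N31 cells cannot be told apart from the tagged proteins as a source of difference. The neural identity of the cells was not checked against marker genes, because the gene table at hand is of assembly GRCm38 and the peaks are in mm9.

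Myc encodes a basic helix-loop-helix leucine zipper protein that pairs with Max on E-box DNA and drives growth and proliferation of progenitors. Its gene stands in a region poor in other genes, and in many mouse and human tissues it is controlled by enhancers placed far to either side. In the order of GRCm38 genes, A1bg and Lratd2 are the nearest coding genes before Myc, and Pvt1, a long non-coding RNA gene, and then the gasdermin gene Gsdmc follow it. Pax6 is a paired-box and homeobox factor of the eye and forebrain, and Etv6 is an ETS-family factor known mainly as a repressor. H3K4me2 marks promoters and enhancers that are active or poised.

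Libraries differed in depth. After duplicates were removed, the EGFP_OK library kept 21498324 tags, the Pax6 library 5288154, the Etv6 library 24071748 and the H3K4me2 library 24550365. The Pax6 library had lost 81% of its tags as duplicates, against 16% to 39% in the others. The weakest peak called anywhere held 10 tags in the Pax6 list and 17 to 19 in the others.

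The Myc window was crowded with FLAG peaks. EGFP_OK had 95 peaks in it, Pax6 75, Etv6 92 and H3K4me2 86. That is 31.7 EGFP_OK peaks per Mb, against 11.0 over chromosomes 1 to 19 and X, a density 2.88 times that of the list. For Pax6 it is 25 per Mb against 6.45, or 3.88 times. Etv6 had 30.7 per Mb against 12.0, or 2.55 times, and H3K4me2 had 28.7 against 19.2, or 1.49 times. The H3K4me2 landscape was thus the least dense here relative to its own list.

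Among 887 tiles of 3 Mb laid in step with the window, no other tile held as many EGFP_OK or Pax6 peaks. The median tile held 30 EGFP_OK and 16 Pax6 peaks. For Etv6, 18 tiles including the window held at least 92 peaks, and for H3K4me2, 191 tiles held at least 86. The equal stretches on either side held fewer FLAG peaks. From 57.5 to 60.5 Mb there were 56 EGFP_OK, 47 Pax6 and 82 Etv6 peaks, and from 63.5 to 66.5 Mb there were 41, 23 and 35 in that order. H3K4me2 had more peaks before the window, 120, and fewer after it, 61, beside 86 inside.

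At the start of the window, the last Pax6 peak outside, with its summit at 60496221, had 12 tags at 9.33-fold, and the first inside, at 60523935, had 38 tags at 6.97-fold. At the far end the last Pax6 peak inside lay at 63385339 with 36 tags and the first beyond at 63512084 with 25 tags. The last EGFP_OK peak inside lay at 63484215 with 84 tags and the next at 63603293 with 55. At the start, Etv6 peaks lay at 60464742 with 94 tags and at 60571386 with 121. Except for that of Pax6 at the start, these stretches without a summit are longer than the median spacing inside the window. That spacing was 24.7 kb for EGFP_OK, 28.4 kb for Pax6 and 25.7 kb for Etv6.

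**Figure D1:**
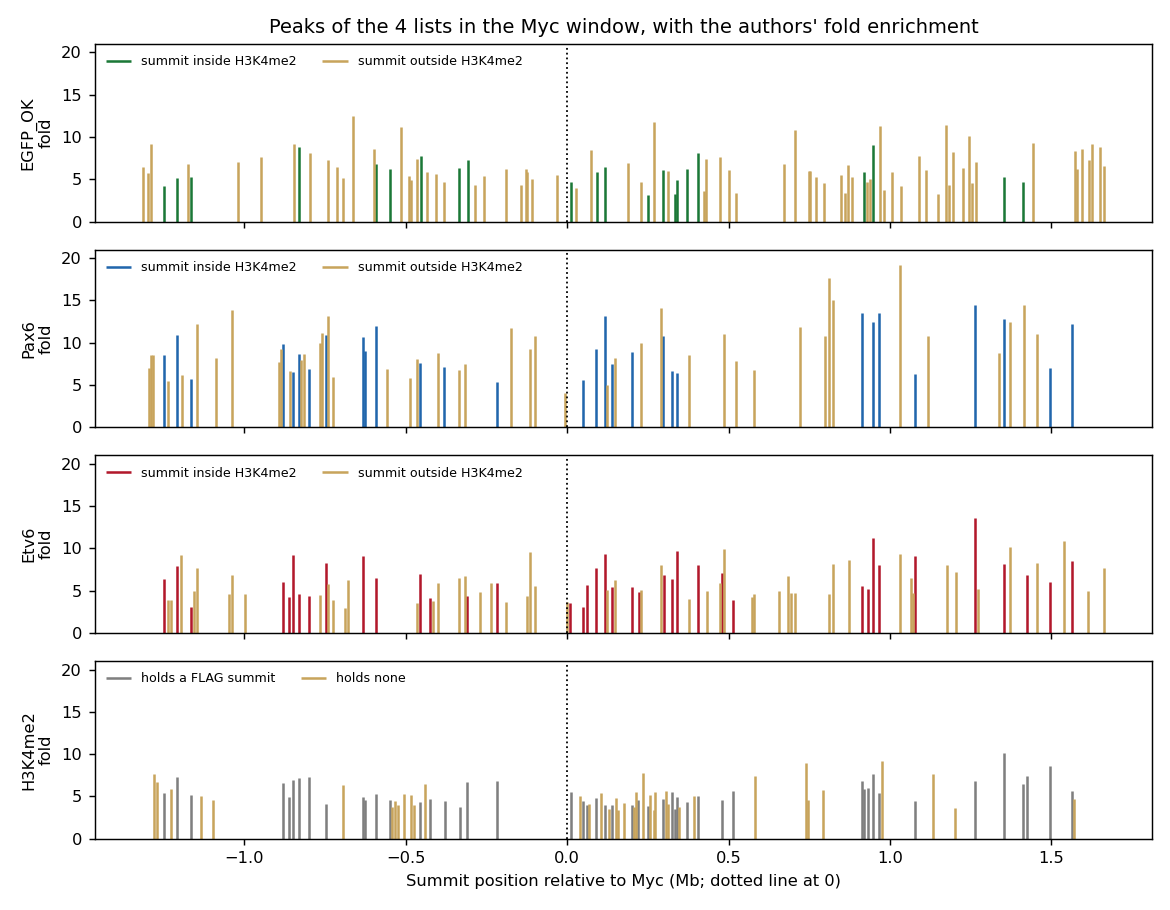
Peaks of the 4 lists in the Myc window. Each line is 1 peak at its summit, by distance from Myc in Mb, and its height is the fold enrichment given by the authors' peak caller. Colours separate FLAG summits inside and outside H3K4me2 peaks and, in the lowest panel, H3K4me2 peaks with and without a FLAG summit. The 2 tallest Pax6 lines, at 17.7-fold and 19.2-fold, stand 810 kb and 1033 kb after Myc, and H3K4me2 lines crowd just after Myc, with 23 in the first 300 kb.

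At Myc itself, 2 lists had a peak and 2 had none. A Pax6 peak from 61814252 to 61820092 and an Etv6 peak from 61814376 to 61820318 both spanned the place of Myc. They are the widest peaks of their lists in the window, 5841 bp and 5943 bp, and among the least enriched. The Pax6 peak held 247 tags at 4.01-fold, the lowest fold of any Pax6 peak in the window. The Etv6 peak held 479 tags, the most of any Etv6 peak in the window, at 3.63-fold. Their summits lay 3872 bp apart, the largest distance of any overlapping Pax6 and Etv6 pair here.

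No EGFP_OK or H3K4me2 peak was listed at Myc. A place with no peak was not called at the peak caller's cutoff, and whether the mark is absent there was not tested. The nearest EGFP_OK peaks had their summits 31.8 kb before Myc (86 tags, 5.57-fold) and 10.8 kb after it (167 tags, 4.70-fold). The nearest H3K4me2 peak lay 10.6 kb after Myc, from 61829908 to 61832013, with 244 tags at 5.56-fold.

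That first H3K4me2 peak after Myc was shared by an EGFP_OK and an Etv6 peak. Their summits, at 61830764 and 61830532, both lay inside it, and the Etv6 peak held 81 tags at 3.6-fold. No Pax6 peak was listed there, and the next Pax6 peak lay 49.6 kb after Myc with 54 tags at 5.62-fold. It and an Etv6 peak of 138 tags at 3.07-fold shared the H3K4me2 peak from 61868656 to 61873247. That is the H3K4me2 peak with the most tags in the window, 969, at 4.48-fold.

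H3K4me2 was lopsided around Myc. The longest stretch of the window without an H3K4me2 summit ran from 61602459 to 61830631, 228 kb that end just beyond Myc. FLAG peaks lay in it all the same, 6 of EGFP_OK, 4 of Pax6 and 5 of Etv6 outside any H3K4me2 peak. Within 300 kb after Myc there were 23 H3K4me2 peaks, and within 300 kb before it there was 1. The FLAG lists leaned the same way by less, with 10 EGFP_OK peaks after and 8 before, 10 and 5 Pax6 peaks, and 13 and 8 Etv6 peaks. Of the 3 widest H3K4me2 peaks, 2 stood in the dense stretch, from 61883395 to 61889911 (694 tags, 4.11-fold) and from 61946840 to 61952125 (458 tags, 3.57-fold), and neither held a FLAG summit. The other, from 61362570 to 61367980 (524 tags, 4.29-fold), held a summit of each FLAG list.

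**Figure D2:**
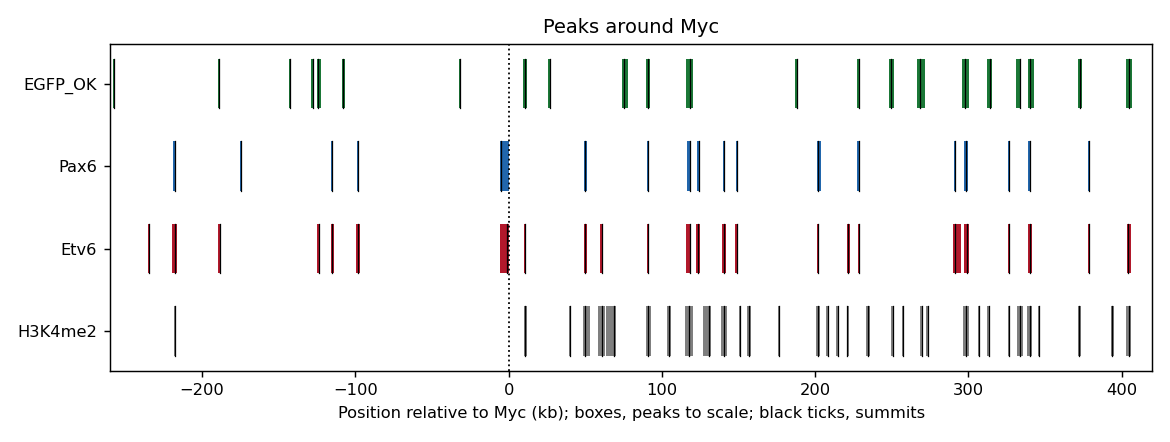
Peaks close to Myc, by distance from it in kb. Boxes are peaks drawn to scale and black ticks their summits. Pax6 and Etv6 have a wide peak at 0, EGFP_OK and H3K4me2 have none there, and the H3K4me2 row has no summit between 218 kb before Myc and 10.6 kb after it.

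The FLAG peaks merged into 176 sites, of which 70 joined 2 or more lists. Pax6 and Etv6 without EGFP_OK formed the most frequent union, 39 sites, and 16 sites joined peaks of all 3 lists. In the site from 61353263 to 61356435, the EGFP_OK and Pax6 peaks each overlapped the Etv6 peak but not each other. EGFP_OK stood alone at 64 sites, Etv6 at 27 and Pax6 at 15. An H3K4me2 peak overlapped 13 of the 16 sites of all 3 lists and 17 of the 39 sites of Pax6 and Etv6. Of the sites of 1 list alone it overlapped 12 of 64 for EGFP_OK, 6 of 27 for Etv6 and 2 of 15 for Pax6. Whole-list shares were computed for summits of single peaks, not for merged sites. For peaks in no other FLAG list, summits inside H3K4me2 were 7 of 64 for EGFP_OK (list 14.0%), 6 of 27 for Etv6 (47.6%) and 1 of 15 for Pax6 (22.25%). For Pax6 peaks they were 12 of 15 in all 3 lists (72.8%) and 16 of 40 with Etv6 only (44.3%). For Etv6 peaks with EGFP_OK only they were 4 of 10 (75.8%).

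The partners of Pax6 peaks chose the window, so their shares are given as a description. Overlap by at least 1 bp with an Etv6 peak was found for 55 of 75 Pax6 peaks, 73.3%, beside 72.6% of the whole Pax6 list. With both lists at a score of at least 100 the order was another, 22 of 39 Pax6 peaks or 56.4%, beside 80.4% of the list. An EGFP_OK peak overlapped 20 of the 75, 26.7%, beside 20.1%. Members of all 3 lists were 15 of 75, or 20%, beside 16.6%, and members with no other FLAG list were 15 of 75, or 20%, beside 23.9%.

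Of the Etv6 peaks, 55 of 92 overlapped a Pax6 peak, 59.8%, beside 38.9% of the whole Etv6 list, also a description. With summits within 200 bp in place of overlap the share was 51.1%, beside 32.3%. An EGFP_OK peak overlapped 26 of 92 Etv6 peaks, 28.3% (95% exact binomial interval 19.4 to 38.6, for counting error only), against 19.2%. Peaks of both lists were wider here, as given below, and no share by summits was computed for this comparison. In all 3 lists were 16 of 92, 17.4%, beside 9.01%, and Etv6 peaks alone were 27 of 92, 29.3%, beside 50.9%.

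EGFP_OK peaks were mostly alone. In no other FLAG list were 64 of 95, 67.4%, beside 77% of the whole list. A Pax6 peak overlapped 20 of 95, 21.1%, beside 11.7%, and an Etv6 peak 26 of 95, 27.4% (18.7 to 37.5), against 20.9%. In all 3 lists were 15 of 95, 15.8%, beside 9.65%. Peaks were wider in the window than in the lists, with medians of 1765 bp against 1143 for EGFP_OK, 1472 against 971 for Pax6 and 1728 against 1113 for Etv6. By summits within 200 bp, a rule that does not use width, 14.7% of EGFP_OK peaks met Pax6 or Etv6, beside 15.0% of the list, so the difference seen by overlap ended.

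The shares of FLAG summits in H3K4me2 had intervals that include the values of their whole lists. Inside the mark were 22 of 95 EGFP_OK summits, 23.2% (15.1 to 32.9), against 26.9%. So were 30 of 75 Pax6 summits, 40.0% (28.9 to 52.0), against 43.7%, and 39 of 92 Etv6 summits, 42.4% (32.2 to 53.1), against 51.9%. In the last 1 Mb only 4 of 37 EGFP_OK summits were in H3K4me2, while 8 of 18 Pax6 and 10 of 27 Etv6 summits were.

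Seen from the mark, 48 of 86 H3K4me2 peaks held a FLAG summit, 55.8% (44.7 to 66.5), against 40.3% of the H3K4me2 list. Pax6 summits were in 30 of them, 34.9% (24.9 to 45.9), against 14.5%. Etv6 summits were in 39, 45.3% (34.6 to 56.5), against 31.9%, and EGFP_OK summits in 22, 25.6% (16.8 to 36.1), against 15.3%. All 3 FLAG lists were denser here than over the genome, and the part of that density in these shares was not tested.

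**Figure D3:**
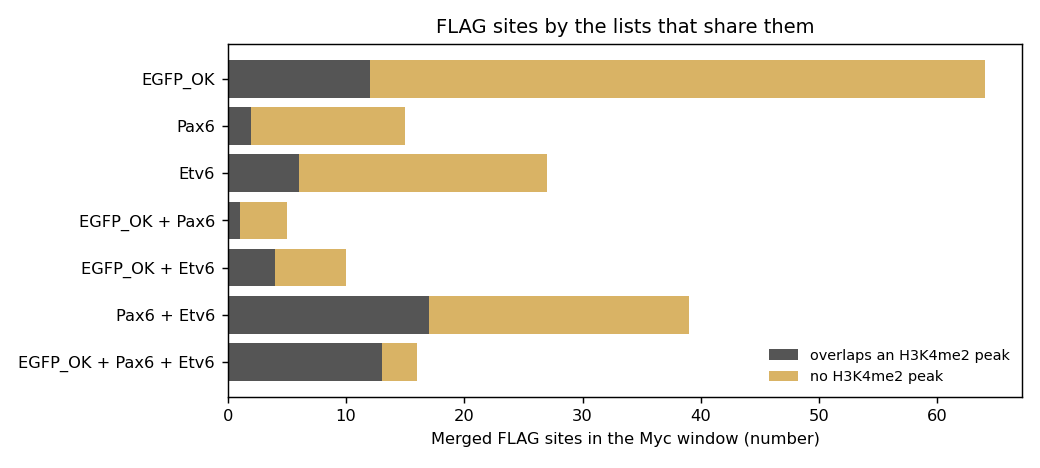
Merged FLAG sites of the Myc window by the lists that share them. Bars count sites, dark where an H3K4me2 peak overlaps and light where none does. EGFP_OK alone is the longest bar, with 64 sites of which 12 overlap H3K4me2, and the sites of all 3 lists are mostly dark, 13 of 16. The bars carry no whole-list values.

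The pair of Pax6 peaks that marks the window lies before Myc, in the first 1 Mb of the window. The first, from 61004572 to 61006804, held 144 tags at 8.72-fold and ranked 149 of 16646 Pax6 peaks by score. The second, from 61060753 to 61062297, held 71 tags at 11.1-fold and ranked 510. Among the 3969 Pax6 peaks with no partner in the other FLAG lists they ranked 2 and 4. Both are outside H3K4me2.

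Between them stood Pax6 peaks that did have a partner. One from 61020670 to 61022051 held 74 tags at 6.90-fold, less enriched than either of the pair, and met an Etv6 peak of 86 tags inside H3K4me2. One from 61051716 to 61055219 held 173 tags at 9.99-fold and met an Etv6 peak of 76 tags outside H3K4me2. These 4 neighbouring Pax6 peaks thus ranged from 6.90-fold to 11.1-fold, and the highest and the lowest fold were those of an unpartnered and a partnered peak.

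The nearest Etv6 peaks ended 13.8 kb from the first of the pair and 5.41 kb from the second. The nearest EGFP_OK peaks were 14.4 kb and 16.6 kb away, and the nearest H3K4me2 peaks 13.7 kb and 8.84 kb. Scaled by kept tags alone, the Pax6 counts would correspond to 655 and 323 tags at the depth of the Etv6 library. The weakest Etv6 peak held 18 tags in the whole list and 44 in the first 1 Mb of the window. Such a scaling compares different antibody yields and states no expected number. Whether an Etv6 peak was missed at the pair was not tested.

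The remaining unpartnered Pax6 peaks were 13, of which 1, from 61192892 to 61194164, had its summit in H3K4me2. The next by score ran from 61260018 to 61262761, with 109 tags at 6.87-fold. The weakest, from 62540450 to 62541092, held 10 tags at 11.9-fold. Of the 15 in all, 10 lay in the first 1 Mb of the window, 1 in the second and 4 in the last. Among the 39 Pax6 peaks with a score of at least 100, 7 had no Etv6 peak, 17.9%, against 7.69% of the 4202 such peaks in the list, a share that includes the pair the window was picked for.

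The strongest Pax6 peaks of the window stood elsewhere. By score the highest ran from 62117342 to 62119818, 298 kb after Myc, with 200 tags at 10.8-fold, and ranked 36 in the Pax6 list. It met an Etv6 peak of 375 tags at 6.89-fold and an EGFP_OK peak of 446 tags at 6.11-fold, in an H3K4me2 peak of 584 tags at 4.66-fold. The next, from 62020929 to 62023594, held 181 tags at 8.88-fold beside an Etv6 peak of 125 tags at 5.45-fold, and had no EGFP_OK partner. The third, from 61070515 to 61074360, held 260 tags at 10.95-fold beside an Etv6 peak of 470 tags at 8.32-fold. All 3 had their summits in H3K4me2.

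The strongest Etv6 peak, from 63083766 to 63085295 and 1265 kb after Myc, held 216 tags at 13.6-fold and ranked 76 in its list. Peaks of both other FLAG lists met it, Pax6 with 40 tags at 14.4-fold and EGFP_OK with 193 tags at 7.10-fold, and its summit was in H3K4me2. The second, from 60624508 to 60626612, held 404 tags at 9.19-fold with a Pax6 peak of 54 tags at 6.17-fold and no H3K4me2. The third, from 63171137 to 63172846, held 187 tags at 8.18-fold and was again shared by all 3 lists in H3K4me2, with 65 Pax6 tags and 50 EGFP_OK tags.

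The strongest EGFP_OK peaks were alone and outside H3K4me2. They ran from 63062451 to 63065179 (485 tags, 10.2-fold), from 62910676 to 62912454 (330 tags, 7.73-fold) and from 61157499 to 61159622 (265 tags, 12.5-fold), and ranked 117, 126 and 186 in the list. The widest EGFP_OK peak of the whole list, 6581 bp from 62788488 to 62795068, also lies here, with 895 tags at 11.3-fold. It met no other FLAG peak. Its summit was outside H3K4me2, but an H3K4me2 peak from 62793561 to 62794838 (91 tags, 9.22-fold) lay within its span. This EGFP_OK peak is named for its width, after its values were seen.

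The strongest H3K4me2 peak lay far before Myc, from 60653719 to 60657502, with 652 tags at 5.21-fold, and ranked 302 of 49568. All 3 FLAG lists met it, EGFP_OK with 202 tags at 5.34-fold, Pax6 with 107 tags at 5.74-fold and Etv6 with 241 tags at 3.11-fold. The second is the peak with 969 tags after Myc given above. The third ran from 61225690 to 61229408, with 419 tags at 5.35-fold, and was also met by all 3, with 181 EGFP_OK, 97 Pax6 and 355 Etv6 tags.

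Overlapping Pax6 and Etv6 peaks of the window had close summits, with a median distance of 70 bp over 55 pairs, against 76 bp over 12080 pairs in the lists. Summits within 100 bp made up 63.6% here and 60.4% in the lists. EGFP_OK summits lay farther off, at a median of 204 bp from Etv6 over 26 pairs and 235 bp from Pax6 over 20 pairs, against 130 and 131 bp in the lists.

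FLAG peaks in the window held many tags for their fold. The median EGFP_OK peak held 123 tags, against 47 in the list, although its median fold was 6.20 against 7.04. The median Pax6 peak held 43 tags against 19, at 8.85-fold against 10.6-fold, and the median Etv6 peak 111 against 54, at 5.92-fold against 6.26-fold. H3K4me2 differed, with 105 tags against 120, at 5.07-fold against 5.82-fold. Peaks over 3 kb wide made up 17.9% of the EGFP_OK peaks here against 0.861% of the list, 6.67% against 0.307% for Pax6, 12.0% against 1.21% for Etv6 and 17.4% against 14.4% for H3K4me2.

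To follow this along the chromosome, the tags of each peak were divided by its width in kb and by its fold. Since fold is the summit over the local background, this ratio can rise where the library has more tags around the peak. It can also rise where tags are spread evenly over a wide peak, and the 2 were not told apart. The ratio is given relative to the median of the list. In the first 2 Mb, up to 62.5 Mb, all 57 Pax6 peaks and all 65 Etv6 peaks were above their list's median. Their medians were 2.01 for Pax6 (lowest 1.00, highest 5.67) and 1.68 for Etv6 (1.09 to 2.92). The highest value of both lists was that of the wide peak at Myc.

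In the last 1 Mb the same libraries were, by this ratio, back at about their list's level. There 9 of 18 Pax6 peaks and 16 of 27 Etv6 peaks were above the median, with medians of 0.974 and 1.03. EGFP_OK did not return to its list's level with them, although its bins of 0.5 Mb, given below, declined from 62.5 Mb on. Its median was 1.71 in the first 2 Mb, with 55 of 58 peaks above the list's median, and 1.99 in the last 1 Mb, with 36 of 37 above. H3K4me2 gave 1.13 in the first 2 Mb and 0.749 in the last, with 44 of 67 and 2 of 19 above. The division at 62.5 Mb was made after the values were seen.

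In bins of 0.5 Mb, the Pax6 ratio went from 1.00 just before the window to 2.21, 2.01, 1.81 and 2.07 in the first 4 bins, and then to 0.775 and 1.17. Etv6 went from 1.18 to 1.63, 1.76, 1.69 and 1.73, and then to 1.05 and 1.02. EGFP_OK followed another course, from 1.32 before the window to 1.22, 1.47, 1.81 and 2.51, then 2.07 and 1.63, and 1.11 beyond it. Of all bins with at least 5 peaks, the bin from 62.0 Mb ranked first of 2679 for EGFP_OK and the bin from 61.0 Mb first of 2572 for Etv6, and the best Pax6 bin, from 60.5 Mb, ranked 4 of 1475. For H3K4me2 the best bin of the window, from 61.5 Mb, ranked 52 of 3203.

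Around the step, in peaks picked after their values were seen, the Pax6 peak at 62397872 held 45 tags at 6.73-fold and the next, at 62540695, held 10 tags at 11.9-fold. Etv6 peaks held 137 tags at 6.72-fold at 62505144 and 52 tags at 4.73-fold at 62513648. EGFP_OK peaks there held 74 tags at 6.82-fold at 62490826 and 225 tags at 10.8-fold at 62526572. By the ratio, all of these decreased, from 2.43 to 0.704 for Pax6, 1.68 to 1.07 for Etv6 and 1.41 to 1.08 for EGFP_OK. Both Etv6 peaks lie past 62.5 Mb.

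Peaks of similar fold gave the same order, in tags not divided by width. Among peaks between the fold quartiles of their list, those of the first 2 Mb held a median of 64.5 Pax6 tags against 16 in the list, and 174 Etv6 tags against 47. In the last 1 Mb the medians were 21.5 and 63, still above those of the lists. For EGFP_OK they were 112 in the first 2 Mb and 127 in the last, against 42. In the stretch before the window they were 18, 52 and 48 for Pax6, Etv6 and EGFP_OK, and in the stretch after it 17, 72 and 59, so that Etv6 was higher there than in the last 1 Mb of the window. Peaks of the first 2 Mb were also wider than those of the list in the same fold range. Their median widths were 1654 bp against 927 for Pax6, 2066 against 1050 for Etv6 and 1762 against 1101 for EGFP_OK. No control library is given, and the number of DNA copies along the window was not tested.

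**Figure D4:**
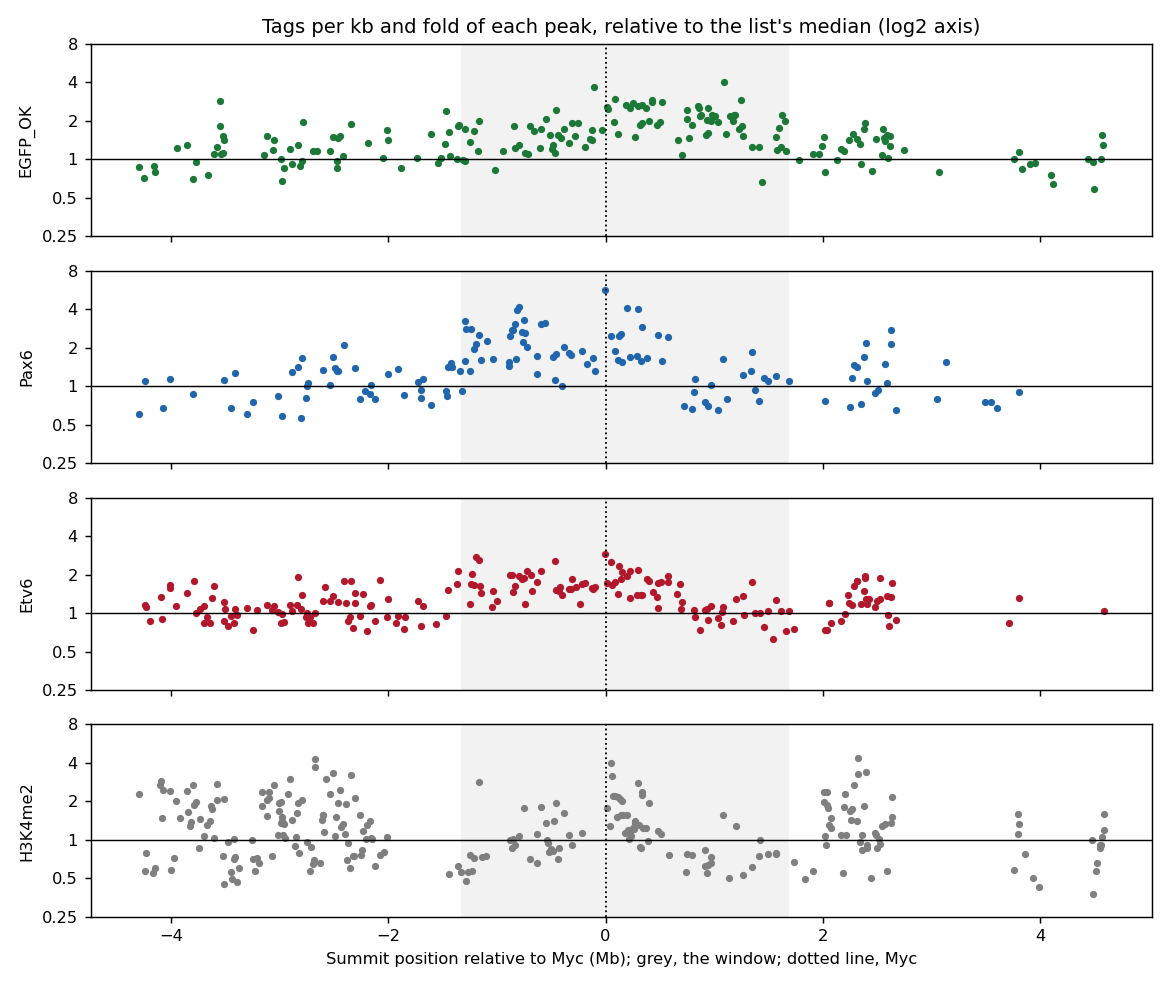
Tags per kb and fold of each peak relative to its list's median, on a log2 axis, by distance from Myc in Mb. Points are peaks, the grey band is the window and the line at 1 is the list's median. Pax6 and Etv6 points stay above 1 from the start of the window to 0.7 Mb after Myc and then fall around it. EGFP_OK points stay mostly above 1 to the end of the band, some only slightly.

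At sites shared with EGFP_OK, the balance of tags differed along the window. The EGFP_OK count was a median 0.624 times the Etv6 count at 11 overlaps before Myc (0.254 to 1.76) and 1.87 times at 15 after it (0.267 to 5.36), against 0.830 over both lists. Above that list value were 4 of 11 before and 13 of 15 after. Against Pax6 the ratio was 1.88 at 10 overlaps before Myc (0.553 to 8.21) and 3.31 at 10 after (0.769 to 11.3), with a list value of 2.67. The ranges overlap in both cases. The part after Myc was itself uneven. Over Etv6 the median was 1.39 at 8 overlaps between Myc and 62.5 Mb and 1.97 at 7 in the last 1 Mb. Over Pax6 it was 2.90 at 6 overlaps (2.23 to 4.52), near the list value, and 7.97 at 4 in the last 1 Mb (0.769 to 11.3). Pax6 over Etv6, both from NS cells, was 0.272 at 27 overlaps before and 0.299 at 28 after, against 0.291 over the lists.

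The single Pax6 sites still ranged widely. The Pax6 count was 2.28 times the Etv6 count at the site from 61051716 to 61055347, next to the unpartnered pair, and 1.45 times at 62020929. The lowest ratio was 0.113.

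**Figure D5:**
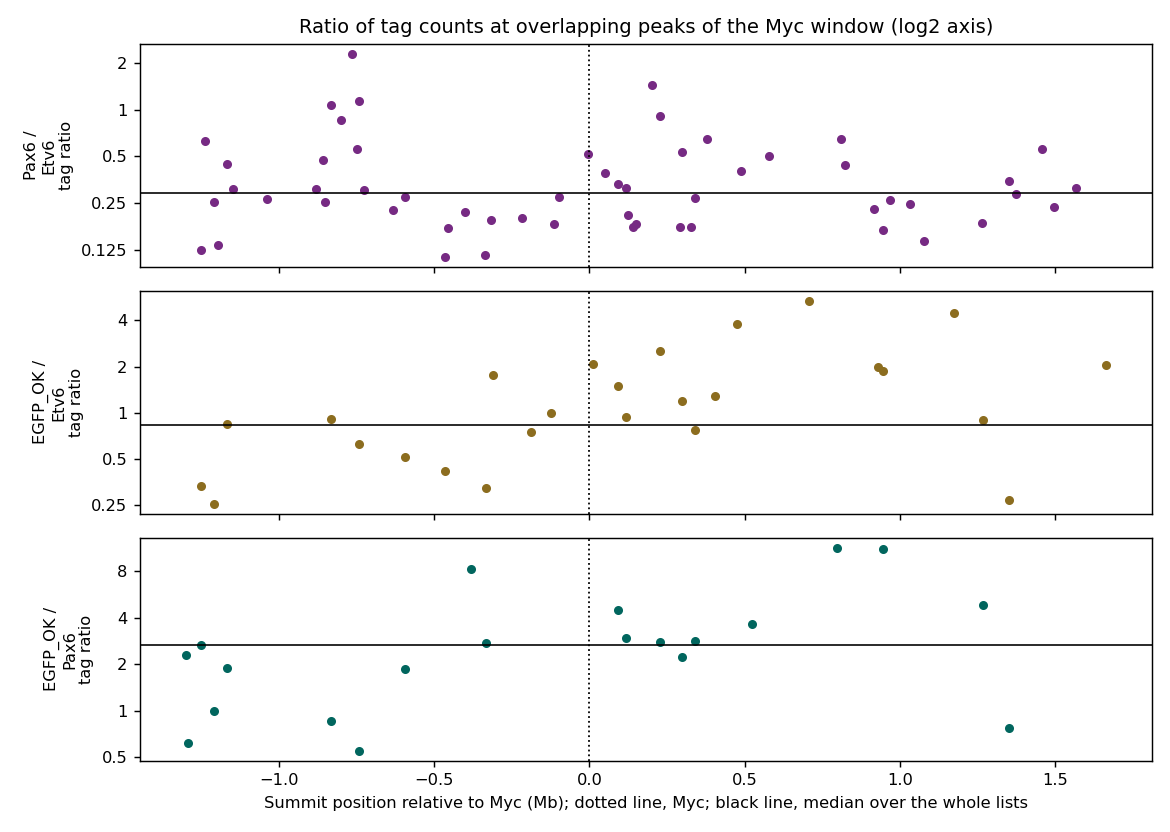
Ratio of tag counts at overlapping peaks of the Myc window, on log2 axes, by distance from Myc in Mb. Points are overlapping pairs and black lines the medians over the whole lists. Pax6 over Etv6 scatters around its line on both sides of Myc, and both EGFP_OK ratios lie mostly below their lines before Myc and above them after it.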

How the data were processed

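Tagged Pax6, tagged Etv6, EGFP_OK and H3K4me2 were profiled in 1 library each, after fixation with 1% formaldehyde for 10 min and shearing to 200 to 500 bp per the labels' protocols. MACS 1.4.2 called the peaks of each library alone, per the file headers, with no control, a p cutoff of 1e-05, a regional background of 10000 bp and at most 1 tag per position. The submitters' processing notes also name CASAVA 1.8.1, BWA 0.6.2 and mm9, with no role given. The deposited tag counts per peak are not normalized. The deposited score is 10 times the −log10 of the p-value, and the deposited fold is MACS's enrichment ratio at the summit over local background. Scores and folds are the authors' values and serve only to describe or rank peaks within a list.

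From these, summits, overlaps, densities, tags per kb and fold, and exact 95% binomial intervals were computed with Python 3.11.15, numpy 2.4.6, pandas 2.3.3, scipy 1.17.1 and matplotlib 3.10.9. Whole-list values use chromosomes 1 to 19 and X, whose length was taken from the first to the last peak, 2574.5 Mb in all. The overlap code was tested on simulated data. Intervals cover counting error only. Peaks that lie side by side are not independent. Kept tags per library, given with the results, set the precision.

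The window, the regions named and the measures were chosen with earlier results of these data known. Named are the Pax6 pair, sites of 2 or more FLAG lists, the 3 highest-scoring peaks of each list, the peaks nearest to Myc and the 3 widest H3K4me2 peaks; the 70 shared sites are given by counts, with examples. Alternatives changed the score limit, the overlap rule, the window and the number of peaks. Promoter sequences and peak annotation were not used here.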

Additional observations from a re-analysis of the deposited data

How the results depend on the processing

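Of 47 alternative values, 33 stayed within 1.5 times a count or within the interval of a share. The 33 include counts within 1 Mb on each side of Myc, a shorter stretch than the window. At a score of at least 100 the window held 51 EGFP_OK, 39 Pax6 and 48 Etv6 peaks, by construction fewer. The 39 Pax6 peaks were of 4202 in the list at that score, beside 75 of 16604 at any score. For EGFP_OK and Etv6 that list count is not given. With as many top peaks as the shortest list, 16604, each list has 6.45 peaks per Mb over the genome. The 3 Mb of the window then held 65 EGFP_OK, 75 Pax6, 54 Etv6 and 20 H3K4me2 peaks. The H3K4me2 count was near that density, so the 1.49 times of its full list was not kept. With both lists at that score, 56.4% of Pax6 peaks met Etv6 (80.4% of the list), 45.8% of Etv6 peaks met Pax6 (24.1% of the list) and 21.6% of EGFP_OK peaks met either (13.8%). With summits within 200 bp, 14.7% of EGFP_OK peaks met either, against 15.0% of the list. FLAG peaks at that score gave 56.3% of Etv6 summits in H3K4me2 (57.8% of the list), and H3K4me2 peaks at that score held a FLAG summit in 66.7% (45.2%). Chosen after seeing the data, peaks of similar fold held 2.87, 3.09 and 3.06 times their list's tags for EGFP_OK, Pax6 and Etv6, where tags per kb and fold gave 1.83, 1.72 and 1.53. Without the Pax6 library, 53.5% of H3K4me2 peaks held a FLAG summit. No Pax6 peak of the pair had another list's peak within 1 kb, but the pair was picked for having no partner in the other FLAG lists. No paired analysis was possible because each group holds 1 library, and no replicate could be left out. Depth limits the Pax6 list most.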
